A study of Homo sapiens with 18 samples.

Results

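The histone cluster genes are those whose older symbols begin with HIST1H, HIST2H, HIST3H or HIST4H. They are genes of the canonical histones H1, H2A, H2B, H3 and H4 together with related pseudogenes. They were taken by symbol from all deposited tables, which gave 89 of 60622 genes. Of these, 20 had a mean of 1 CPM or more over 18 libraries (CPM, counts scaled to the total of the library), 49 lay below that with at least 1 count, and 20 had no count in any library. The rule uses the symbol and, for the split, the mean over all libraries; the group was picked for study with earlier results of these data known.

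Canonical histones package newly made DNA, so their genes are transcribed mainly in S phase of the cell cycle. Their mRNAs usually end not in a poly(A) tail but in a short stem-loop, which the stem-loop binding protein SLBP holds while the U7 small nuclear ribonucleoprotein directs the cut just behind it. Some of these genes also make longer, polyadenylated transcripts, which are known from differentiated and non-dividing cells.

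The libraries are of RNA from H1299 cells, an established human lung cancer line. Per the labels, doxycycline switched on a transgene for wild-type p53 with FKBP12F36V and HA tags. AceTAG compounds are heterobifunctional molecules that bind the FKBP12F36V tag and an acetyltransferase. The design asks how the transcriptome changes with AceTAGp300CBP-1 (the p300/CBP compound) and AceTAGPCAFGCN5-4 (the PCAF/GCN5 compound). There were 6 groups of 3 libraries, all of cells treated for 24 h. They were p53-FKBP12F36V-induced cells with the p300/CBP compound, the PCAF/GCN5 compound or DMSO, and non-induced H1299 cells with the same treatments. Sample titles name the construct for induced cells only, and the labels give neither the doses nor whether doxycycline was also added to non-induced cells. Nor do they say whether libraries of a group came from separate cultures, so every p-value measures only the spread between these libraries, which may be technical.

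Libraries held between 9.1 and 29.2 M counts, so that 3 counts, the limit that a count of 0 allows, correspond to 0.103 to 0.331 CPM. This limit covers counting error only. CDKN1A, an inhibitor of cell cycle kinases, averaged 352.0 ± 25.2 CPM in induced DMSO libraries and 89.6 ± 3.37 CPM in non-induced DMSO libraries (SD, n = 3 each). The epithelial keratins KRT8 and KRT18 averaged 84.8 and 224.2 CPM over all libraries, while KRT19, EPCAM and CDH1, further epithelial markers, averaged 0.0515, 0.0224 and 0.0266 CPM and were all but absent. Markers of leukocytes, endothelium and the lung lineage each summed to under 1 CPM in every library, and the leukocyte gene PTPRC had no count. Fibroblast markers summed to between 0.880 and 2.63 CPM, and their part in the results was not tested. The third induced DMSO library stood apart: mitochondrial transcripts made up 0.714% of its counts, against 1.84% and 2.14% in its partners. For histone cluster genes, results that use it are given with and without it where a call changes. For the other gene lists they are given with it only.

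Most histone cluster genes lie in a few dense groups. On GRCh38, the region chr6:25726132-26322292 held 43 of the 89, with 9 of the 20 genes of 1 CPM or more. A shorter region at chr6:27125897-27147515 held 5 genes, of which 4 reached 1 CPM, and chr6:27807075-27893843 held 18, of which 3 did. On chromosome 1, 13 genes lay at chr1:149782689-149888013 and 4 at chr1:228424845-228464626. HIST4H4, a histone H4 gene, lay alone on chromosome 12. By class, 11 of 25 H2B genes reached 1 CPM, against 4 of 23 H2A genes, 2 of 17 H3 genes, 2 of 16 H4 genes and 1 of 8 H1 genes. H2B genes took 48.5% of the members' summed CPM, H2A genes 28.2%, H3 genes 10.2%, H1 genes 9.23% and H4 genes 3.96%. These are shares of counts and are not scaled to gene length. Classes were set by symbol and include pseudogenes. Among the 11 H2B genes of 1 CPM or more, 2 are pseudogenes, HIST2H2BC and HIST2H2BD.

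The sequence that defines canonical histone mRNAs was looked for in GENCODE 29 transcripts behind the stop codon, as a stem of 6 base pairs opening with GG and a loop of 4 bases opening with TT. It was found in 30 members, 14 of the 20 of 1 CPM or more, 11 of the 49 below and 5 of the 20 with no count. It could be found only where a coding model runs past the stop codon, as in 16, 15 and 5 members of these classes. The counts are therefore limited by the annotation, and also by the exact pattern searched. No stem-loop of this pattern was found in HIST1H2AG, HIST1H2BJ or HIST1H3E, whose longest annotated 3′ UTRs were 1827, 569 and 1908 bases. Anywhere in a transcript, the stem-loop was held by 203 of 58676 genes (0.346%), 31 of them members. Over all transcripts, 352 of 206694 (0.170%) held it anywhere. The 30 stem-loops took 4 forms, shared by 17, 5, 5 and 3 members. The members below are shown because results turn on them. The capitals mark the 16 bases of the stem-loop and the small letters 5 bases on each side, read 5′ to 3′ on the gene's strand.
HIST1H2AC: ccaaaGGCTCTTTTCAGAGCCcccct
HIST1H3H: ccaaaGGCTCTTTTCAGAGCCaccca
HIST1H2BD: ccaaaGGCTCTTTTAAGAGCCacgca
HIST2H2BE: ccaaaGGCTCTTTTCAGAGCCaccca
HIST1H2BG: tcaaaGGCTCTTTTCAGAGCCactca
HIST1H2BH: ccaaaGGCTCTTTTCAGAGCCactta
HIST1H2AI: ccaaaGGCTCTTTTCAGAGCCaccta
HIST1H4H: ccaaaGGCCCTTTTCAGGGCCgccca
In order these lie at chr6:26124664-26124689 (HIST1H2AC, plus strand), chr6:27810511-27810536 (HIST1H3H, plus strand), chr6:26158582-26158607 (HIST1H2BD, plus strand), chr1:149886183-149886208 (HIST2H2BE, minus strand), chr6:26216213-26216238 (HIST1H2BG, minus strand), chr6:26252050-26252075 (HIST1H2BH, plus strand), chr6:27808642-27808667 (HIST1H2AI, plus strand) and chr6:26285126-26285151 (HIST1H4H, minus strand). The stem-loops of HIST1H2AC, HIST1H3H, HIST2H2BE, HIST1H2BG, HIST1H2BH and HIST1H2AI had the same letters. HIST1H2BD shared their stem but not their loop, and HIST1H4H shared their loop but not their stem.

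In many gene models the transcript did not end at this stem-loop. Of the 14 genes of 1 CPM or more with one, 12 had a model that ran over 100 bases past it, and 7 of these 12 held the polyadenylation signal AATAAA there. The overrun was 1729 bases in HIST2H2BE, 1640 in HIST1H2BH, 1128 in HIST1H2AC and 769 in HIST1H3H. It was 39 bases in HIST1H2BD and in HIST1H2AI. The longest annotated 3′ UTR of the coding genes had a median of 692.5 bases among those of 1 CPM or more, and 0 bases among those below. In the lower group 24 of 39 coding models stopped at the stop codon, as did those of HIST1H2BK and HIST1H1C among the 18 coding genes of 1 CPM or more. Model length sets which reads can be counted for a gene, and how mRNA was enriched for these libraries is not given in the sources used here, so stem-loop and polyadenylated forms cannot be told apart in the counts.

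Promoters of histone genes carry a small set of short elements. In the promoter windows of RefSeq (GRCh38.p14, 250 bases before to 50 after the start), 64 of the 89 genes had an entry. The letters TATAA (the TATA box), CCAAT and ATTTGCA (the core of the octamer bound by OCT1, which activates H2B genes) were searched on both strands, and a TATAA may overlap its own reverse complement. TATAA was found in 59 of 64 member windows (92.2%), against 20.4% of all 35116 windows. CCAAT was found in 54 (84.4%), against 34.6%, and ATTTGCA in 26 (40.6%), against 4.20%. CCAAT was in every H1, H2A, H2B and H3 window but in 3 of 13 H4 windows. ATTTGCA was in 11 of 14 H2A and 14 of 18 H2B windows, in 1 of 13 H3 windows and in none of the 6 H1 or 13 H4 windows. The windows of HIST1H2AC and HIST1H2BD, which rose with the p300/CBP compound in non-induced cells under every setting tried, lie at chr6:26123922-26124221 and chr6:26157871-26158170, both on the plus strand. Capitals mark the letters searched for, on either strand.
HIST1H2AC: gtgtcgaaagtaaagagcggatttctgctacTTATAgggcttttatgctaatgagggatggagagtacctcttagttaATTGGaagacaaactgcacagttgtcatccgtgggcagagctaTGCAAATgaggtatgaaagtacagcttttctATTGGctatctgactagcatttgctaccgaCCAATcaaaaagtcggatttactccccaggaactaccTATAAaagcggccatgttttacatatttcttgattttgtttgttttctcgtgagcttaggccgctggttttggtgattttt
HIST1H2BD: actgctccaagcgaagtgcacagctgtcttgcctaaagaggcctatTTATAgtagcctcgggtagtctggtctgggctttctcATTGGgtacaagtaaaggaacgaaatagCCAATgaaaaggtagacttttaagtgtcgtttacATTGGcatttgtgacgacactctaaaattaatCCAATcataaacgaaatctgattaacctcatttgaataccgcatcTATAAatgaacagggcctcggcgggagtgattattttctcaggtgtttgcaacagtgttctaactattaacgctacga
Both windows held TATAA ahead of the start and CCAAT on either strand, and of the pair the HIST1H2AC window held ATTTGCA, in reverse complement.

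**Figure D1:**
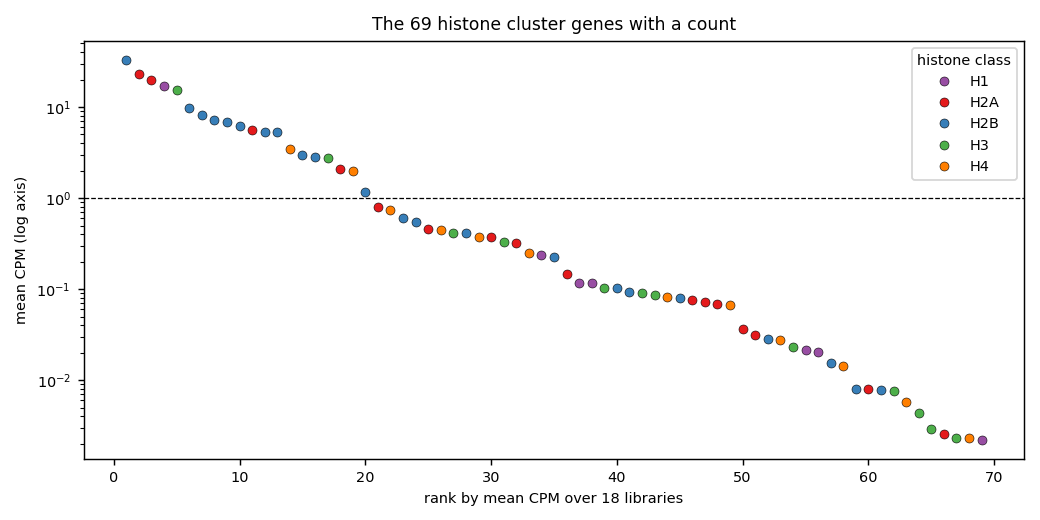
Mean CPM over 18 libraries (log axis) of the 69 histone cluster genes with a count, by rank and coloured by histone class, with the dashed line at 1 CPM. The 20 genes above the line held 95.7% of the members' summed CPM.

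Counts were concentrated in few genes. The 5 of highest mean CPM took 57.5% of the members' summed CPM and the 20 above 1 CPM took 95.7%. HIST1H2BK, an H2B gene, averaged 33.1 CPM, the H2A genes HIST1H2AG and HIST1H2AC 23.1 and 19.9 CPM, the linker histone gene HIST1H1C (histone H1.2) 16.8 CPM and the H3 gene HIST1H3H 15.3 CPM. Per kilobase of the authors' exon length, the mean levels were 86.9 RPKM for HIST1H2BK, 26.2 for HIST1H1C, 12.4 for HIST1H3H, 11.9 for HIST1H2AC, 10.3 for HIST1H2BJ and 10.3 for HIST1H2AG. The H2B genes HIST1H2BJ, HIST1H2BN, HIST1H2BD and HIST1H2BC averaged 9.81, 7.20, 6.83 and 6.21 CPM, HIST3H2A (H2A) 5.61 and HIST2H2BE (H2B) 5.36 CPM. HIST1H4H, the H4 gene of highest mean CPM, averaged 3.42 CPM. Next to the dividing line, HIST1H4I and HIST1H2BE averaged 2.01 and 1.16 CPM just inside, and HIST1H2AE and HIST4H4 0.789 and 0.749 CPM just outside.

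Some members cannot be told apart from near-copies. In HIST1H2BK 74.1% of its 50-base stretches also occur in another gene, most often H2BFS, and in HIST1H2AI 62.3% do, most often in HIST1H2AJ, so their values are uncertain. For the other 18 genes of 1 CPM or more this share was at most 16.5%. Among the 20 genes with no count, 7 shared over 90% of such stretches, among them the copies HIST2H2AA3 and HIST2H2AA4. The pseudogenes HIST2H2BC and HIST2H2BD, at 8.26 and 5.28 CPM, overlap on opposite strands over 1989 exon bases. HIST1H2BN overlaps HIST1H2AK and HIST1H2BE overlaps AL353759.1 in the same way. Whether counting used strand is not given in the sources used here.

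**Figure D2:**
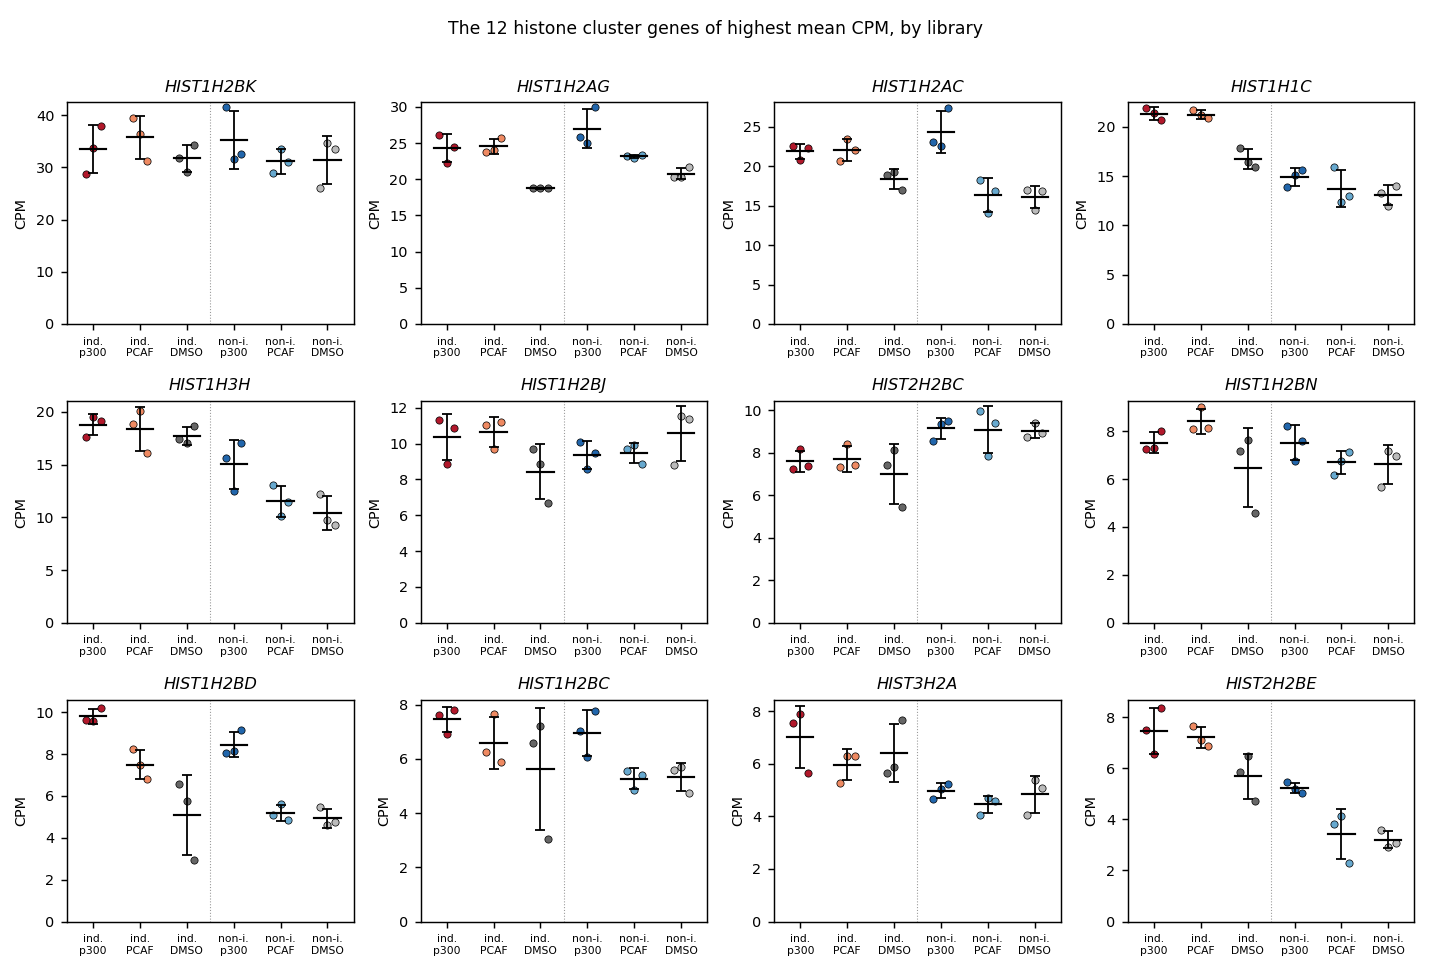
CPM of the 12 histone cluster genes of highest mean CPM in each library (points), with group mean and SD (bars, n = 3), induced groups left and non-induced groups right of the dotted line. HIST1H2AC and HIST1H2BD were higher in every p300/CBP library of non-induced cells than in every non-induced DMSO library.

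With the p300/CBP compound in non-induced cells, whose titles do not name the construct, 6 of 28 tested histone cluster genes rose, 0 fell and 22 did not pass, while 3.43% of all genes tested were called higher and 6.46% lower. The 6 were the H2A genes HIST1H2AC, HIST1H2AG and HIST1H2AI, the H2B genes HIST1H2BD and HIST2H2BE and the H3 gene HIST1H3H. In 9 of the 28 every p300/CBP library was above every DMSO library and in 0 below, against 16.3% and 13.6% of all genes tested. The 6 that rose were among the 9. In bulk RNA, a change in the share of cells that make a transcript and a change in RNA per cell cannot be told apart.

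HIST1H2AC was at 23.01, 22.5 and 27.4 CPM in non-induced p300/CBP libraries and at 16.9, 14.4 and 16.9 CPM in non-induced DMSO libraries. The groups did not overlap, and the third p300/CBP library was the highest of the 6. It rose by 0.58 ± 0.09 on the log2 scale (SE, n = 3 each, edgeR quasi-likelihood test, Benjamini-Hochberg adjusted p = 0.000653). HIST1H2BD was at 8.06, 8.16 and 9.13 CPM in p300/CBP libraries and at 5.46, 4.60 and 4.75 CPM in DMSO libraries. Again no values overlapped, and the spread within each group was small against the gap. Its log2 fold change was 0.74 ± 0.13 (adjusted p = 0.00131). Both genes kept their call without any 1 library and under every other setting tried.

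HIST1H2AG was at 25.8, 25.1 and 30.05 CPM in p300/CBP libraries and at 20.4, 20.3 and 21.6 CPM in DMSO libraries of non-induced cells. The DMSO libraries lay close together, below all p300/CBP libraries, and the log2 fold change was 0.36 ± 0.08 (adjusted p = 0.00891). The call was lost without DMSO library 1 or 2 (adjusted p = 0.0671 and 0.0688). HIST2H2BE was at 5.45, 5.19 and 5.03 CPM in p300/CBP libraries and at 3.57, 2.93 and 3.09 CPM in DMSO libraries. The p300/CBP libraries were close together and all above the DMSO libraries, with a log2 fold change of 0.69 ± 0.16 (adjusted p = 0.0102, and 0.0905 without DMSO library 2). DESeq2 gave no adjusted p for HIST2H2BE or HIST1H2AI here.

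HIST1H3H was at 15.6, 12.5 and 17.0 CPM in p300/CBP libraries and at 12.2, 9.75 and 9.28 CPM in DMSO libraries of non-induced cells. The groups came close without overlapping, since the lowest p300/CBP library lay just above the highest DMSO library. The log2 fold change was 0.48 ± 0.12 (adjusted p = 0.0195, and 0.138 and 0.0851 without DMSO library 2 and 3). HIST1H2AI was at 2.46, 2.36 and 3.11 CPM in p300/CBP libraries and at 1.44, 1.79 and 1.33 CPM in DMSO libraries. Here too all p300/CBP libraries were above all DMSO libraries. Its log2 fold change of 0.73 ± 0.22 passed narrowly (adjusted p = 0.0451) and did not pass without p300/CBP library 2 or 3 or any 1 DMSO library (adjusted p = 0.0811 to 0.190), nor with all 6 groups in 1 fit (0.198).

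Not every histone cluster gene had such values. Over the 20 genes of 1 CPM or more, the median log2 fold change was 0.19 in non-induced cells, where all genes tested had a median of 0.00428, and 17 of the 20 were above 0. HIST1H2BH, an H2B gene, was at 0.58 ± 0.18 and did not pass (adjusted p = 0.0553). It passed with no filter on low counts (adjusted p = 0.0369) and without p300/CBP library 1 (0.00756). HIST1H2BK was at 0.17 ± 0.11, HIST1H1C at 0.18 ± 0.10 and HIST1H2BJ at -0.17 ± 0.12 (adjusted p = 0.389, 0.260 and 0.445). Of 6 members listed as known to be polyadenylated in differentiated cells, 3 rose, HIST1H2AC, HIST1H2BD and HIST2H2BE, and HIST1H1C, HIST1H2BC and HIST1H2BK did not pass.

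In induced cells 2 of 28 tested members rose with the p300/CBP compound, HIST1H2BG and HIST1H2AG, and 0 fell, while 2.94% of all genes tested were called higher and 3.04% lower. All p300/CBP libraries were above all DMSO libraries in 7 members and below in 0, against 16.9% and 16.2% of all genes. HIST1H2BG, an H2B gene, was at 3.47, 4.46 and 4.47 CPM in induced p300/CBP libraries and at 2.05, 2.14 and 2.25 CPM in induced DMSO libraries. The groups were well apart and the DMSO libraries almost equal. It rose by 0.94 ± 0.18 on the log2 scale (adjusted p = 0.0174). This call was lost when p300/CBP library 2 or 3 or DMSO library 1 was left out (adjusted p = 0.103, 0.108 and 0.0637). HIST1H2AG was at 26.2, 22.3 and 24.5 CPM in p300/CBP libraries and at 18.8, 18.7 and 18.8 CPM in DMSO libraries. All 3 p300/CBP libraries were above the narrow range of DMSO. Its rise of 0.36 ± 0.09 passed narrowly (adjusted p = 0.0490) and was lost without any 1 p300/CBP library or without DMSO library 1 or 2 (adjusted p = 0.0908 to 0.204).

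The third induced DMSO library bore on this comparison. HIST1H2BD was at 9.62, 9.57 and 10.2 CPM in induced p300/CBP libraries and at 6.59, 5.75 and 2.93 CPM in induced DMSO libraries, so the third DMSO library was far below its partners. With all libraries the log2 fold change was 0.94 ± 0.24 (adjusted p = 0.0547), which did not pass. All libraries kept, it passed by DESeq2 (adjusted p = 0.00555), with no filter on low counts (6.91e-07) and with all 6 groups in 1 fit (0.00110). It also passed without DMSO library 1 (adjusted p = 0.0441). Without the third DMSO library it was 0.67 (adjusted p = 6.38e-05). HIST1H1C was at 21.97, 21.4 and 20.7 CPM in p300/CBP libraries and at 17.8, 16.4 and 15.9 CPM in DMSO libraries, with no overlap. Its log2 fold change was 0.34 ± 0.09 (adjusted p = 0.0541), and 0.32 without that library (adjusted p = 0.00535). It passed by DESeq2 (adjusted p = 0.0411) and with all 6 groups in 1 fit (0.0173). Without it 5 of 29 members tested were called, 4 higher (HIST1H1C, HIST1H2BD, HIST1H2BG and HIST1H2AG) and 1 lower (HIST1H2BH). Calls over all genes also grew without it, to 10.3% higher and 10.9% lower. The median over the 20 genes of 1 CPM or more was 0.17, beside -0.00290 for all genes tested.

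With the PCAF/GCN5 compound no member passed in either state. In induced cells 0 of 26 members were called by edgeR, where 0.338% of all genes were called higher and 0.00663% lower, 4 members had an unadjusted p below 0.05 and DESeq2 called 0. For the unadjusted threshold no share over all genes is given, here or below, so nothing is read from such counts. All PCAF/GCN5 libraries were above all DMSO libraries in 10 members and below in 1, against 12% and 6.84% of all genes. HIST1H2AG was at 23.8, 24.1 and 25.8 CPM in induced PCAF/GCN5 libraries and at 18.8, 18.7 and 18.8 CPM in induced DMSO libraries. Although these groups did not overlap, its log2 fold change of 0.35 ± 0.09 did not pass (adjusted p = 0.357). It passed with all 6 groups in 1 fit (adjusted p = 0.0213). HIST1H1C was at 21.7, 21.2 and 20.9 CPM in PCAF/GCN5 libraries and at 17.8, 16.4 and 15.9 CPM in DMSO libraries, again with no overlap (0.31 ± 0.10, adjusted p = 0.450). In non-induced cells 0 of 29 members were called by edgeR, where 0.00662% of all genes were called higher and 0.0132% lower, 0 members had an unadjusted p below 0.05 and DESeq2 called 0. All PCAF/GCN5 libraries were above all DMSO libraries in 2 members and below in 0, against 7.25% and 5.64% of all genes. The median over the 20 genes was 0.21 in induced and 0.04 in non-induced cells, beside -0.00689 and 0.00237 for all genes tested.

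**Figure D3:**
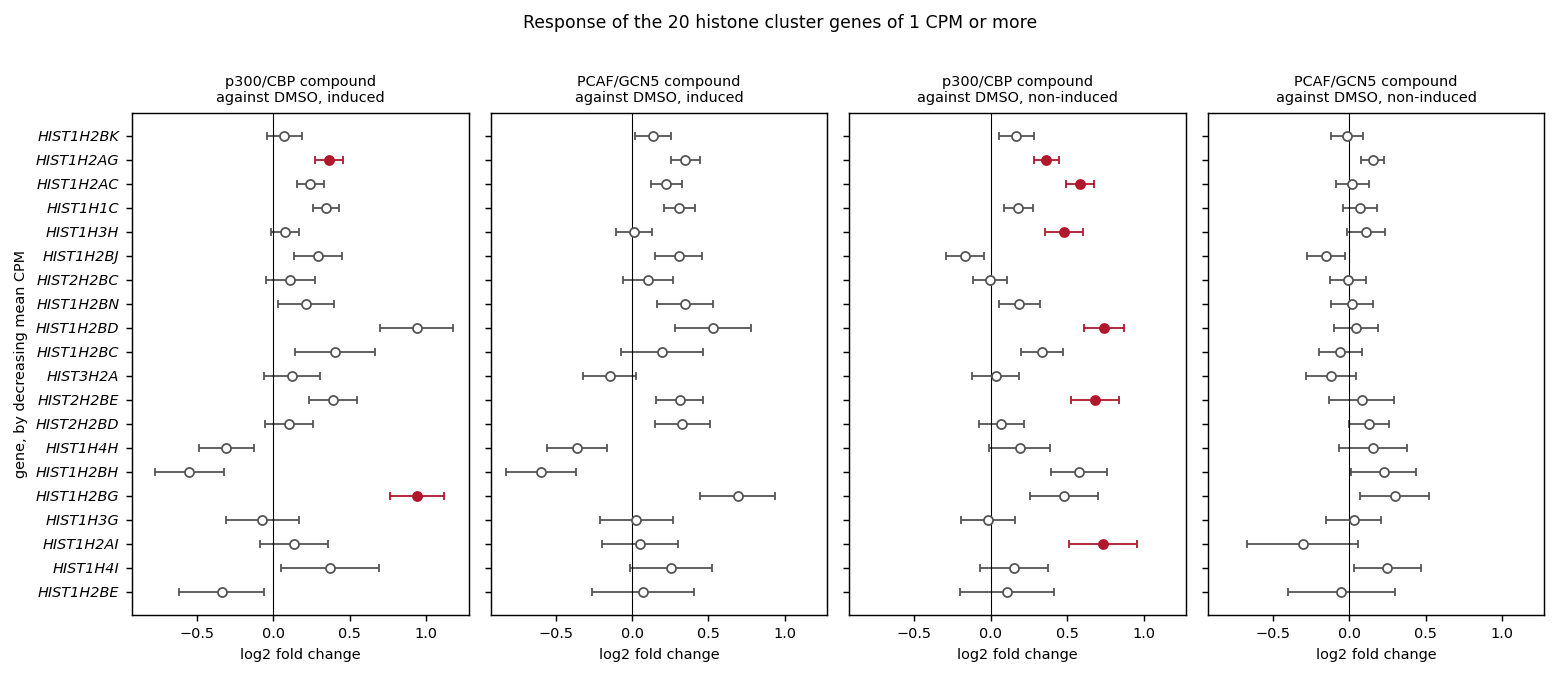
Log2 fold change (point) and SE (bar) of the 20 histone cluster genes of 1 CPM or more for each compound against DMSO, from edgeR fits with 3 libraries a group; filled red points passed at an adjusted p below 0.05. The 6 calls of non-induced cells with the p300/CBP compound and the 2 of induced cells all lie right of 0.

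Set against each other as applied, the compounds differed in non-induced cells at HIST1H2BD and HIST1H2AC. HIST1H2BD was at 8.06, 8.16 and 9.13 CPM in non-induced p300/CBP libraries and at 5.08, 5.60 and 4.85 CPM in non-induced PCAF/GCN5 libraries. The groups were clearly apart and the difference was 0.70 ± 0.13 on the log2 scale (95% interval 0.42 to 0.98, adjusted p = 0.0201). HIST1H2AC was at 23.01, 22.5 and 27.4 CPM in p300/CBP libraries and at 18.2, 14.0 and 16.8 CPM in PCAF/GCN5 libraries, which did not overlap. It differed by 0.57 ± 0.11 (95% interval 0.34 to 0.80, adjusted p = 0.0211). These were 2 of 29 members tested, while 0.159% of all genes were called higher and 0.932% lower. All p300/CBP libraries were above all PCAF/GCN5 libraries in 7 of the 29 and below in 0, against 9.82% and 11% of all genes. Both calls were lost without library 2 or 3 of either compound (adjusted p = 0.0574 to 0.155), and that of HIST1H2BD with all 6 groups in 1 fit (0.0556).

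In induced cells none of 26 members differed between the compounds by edgeR, where 1.87% of all genes were called higher and 2.25% lower. The libraries of the compounds did not overlap in 1 member above and 1 below, against 8.43% and 13.1% of all genes. DESeq2 gave 19 members an adjusted p and called 0. HIST1H2BD was the 1 member with an unadjusted p below 0.05 by edgeR. It was at 9.62, 9.57 and 10.2 CPM in induced p300/CBP libraries and at 8.23, 7.46 and 6.81 CPM in induced PCAF/GCN5 libraries. Every p300/CBP library was above every PCAF/GCN5 library, but the difference of 0.40 ± 0.12 did not pass (95% interval 0.14 to 0.66, adjusted p = 0.0839). HIST1H2AG differed by 0.01 (95% interval -0.17 to 0.18) and HIST1H2BK by -0.08 (95% interval -0.29 to 0.14).

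On induction of the tagged p53 in DMSO, 2 of 27 tested members, HIST1H3H and HIST2H2BE, were called higher and 0 lower. Over all genes 6.01% were called higher and 7.77% lower. All induced libraries were above all non-induced libraries in 7 members and below in 3, against 21.2% and 16% of all genes. With 27 members tested, nothing particular to the members is read from these counts. HIST1H3H was at 17.4, 17.0 and 18.7 CPM in induced DMSO libraries and at 12.2, 9.75 and 9.28 CPM in non-induced DMSO libraries. The groups were far apart, and the log2 fold change was 0.72 ± 0.12 (adjusted p = 0.00503). This call held without any 1 library and under every other setting tried. HIST2H2BE was at 5.86, 6.47 and 4.71 CPM in induced DMSO libraries and at 3.57, 2.93 and 3.09 CPM in non-induced DMSO libraries. All induced libraries were above all non-induced ones, and it rose by 0.79 ± 0.17 (adjusted p = 0.0163). It missed the threshold when induced DMSO library 1, non-induced DMSO library 2 or non-induced DMSO library 3 was left out (adjusted p = 0.0527, 0.0985 and 0.0636). The tagged p53 and doxycycline cannot be told apart in this comparison.

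Other members were mixed on induction. HIST1H1C was at 0.34 ± 0.10 and HIST1H4H at 0.61 ± 0.21 on the log2 scale, and the pseudogene HIST2H2BD at -0.51 ± 0.15, none of them past the threshold (adjusted p = 0.0607, 0.0944 and 0.0533). All 3 passed with all 6 groups in 1 fit (adjusted p = 0.0127, 0.0374 and 0.0220), HIST1H4H also with no filter on low counts (0.0478), and HIST2H2BD without induced DMSO library 2 (0.0375). The median over the 20 genes of 1 CPM or more was 0.04, beside 0.00928 for all genes tested. Without the third induced DMSO library 8 of 32 members tested were called, 4 higher and 4 lower, while 15.3% of all genes were called higher and 17.2% lower. Those higher were HIST1H3H, HIST2H2BE, HIST1H1C (0.37, adjusted p = 0.00203) and HIST1H2AI (0.65, adjusted p = 0.0493). Those lower were HIST2H2BD and 3 genes below 1 CPM, HIST1H1E, HIST1H2BI and HIST1H2AL.

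The response to the p300/CBP compound was not shown to differ between states for any member. Of 33 members tested 0 passed by edgeR, where 1.09% of all genes were called higher and 0.192% lower, and 4 had an unadjusted p below 0.05. DESeq2 gave 27 members an adjusted p and called 0. HIST1H2BH came closest. It was at 2.38, 1.73 and 2.15 CPM in induced p300/CBP libraries and at 3.70, 3.08 and 2.33 CPM in induced DMSO libraries, which overlapped. In non-induced cells it was at 3.37, 4.96 and 4.93 CPM in p300/CBP libraries and at 2.96, 2.89 and 2.76 CPM in DMSO libraries, without overlap. The difference of the responses was -1.13 ± 0.29 (induced minus non-induced, adjusted p = 0.0854). It passed with no filter on low counts (adjusted p = 0.0184) and without induced DMSO library 3 or non-induced p300/CBP library 1 (0.00798 and 0.0391). For HIST1H2BD the difference was 0.20 (95% interval -0.39 to 0.79) and for HIST1H2AG 0.01 (-0.25 to 0.27). For the PCAF/GCN5 compound 0 of 32 members passed by edgeR, where 0.0632% of all genes were called higher and 0.00632% lower, 2 had an unadjusted p below 0.05 and DESeq2 called 0.

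**Figure D4:**
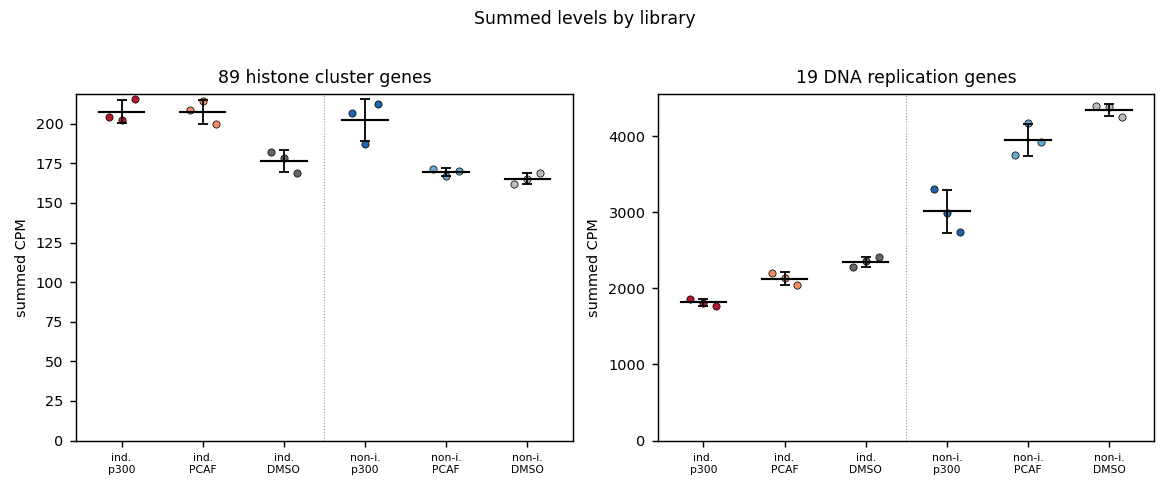
Summed CPM of the 89 histone cluster genes (left) and of 19 DNA replication genes (right) in each library (points), with group mean and SD (bars, n = 3). In p300/CBP libraries of either state the histone sum lies above and the replication sum below the DMSO libraries of that state. The same holds for PCAF/GCN5 libraries of induced cells. In non-induced cells the PCAF/GCN5 replication sum also lies below DMSO, while the histone sum overlaps with it.

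The summed level of all 89 genes was 204.4, 202.2 and 215.9 CPM in induced p300/CBP libraries, 208.8, 214.3 and 199.6 CPM in induced PCAF/GCN5 libraries and 182.1, 178.2 and 168.6 CPM in induced DMSO libraries. Both compound groups lay above DMSO in every library. In non-induced cells it was 206.7, 187.3 and 212.7 CPM with the p300/CBP compound, 171.6, 167.0 and 169.8 CPM with the PCAF/GCN5 compound and 161.9, 165.3 and 168.6 CPM with DMSO. Here the p300/CBP group was above DMSO in every library, and the PCAF/GCN5 group overlapped with it. The log2 ratio of group means in induced cells was 0.24 ± 0.08 for each compound against DMSO. In non-induced cells it was 0.29 ± 0.10 for the p300/CBP compound and 0.04 ± 0.04 for the PCAF/GCN5 compound. For induced over non-induced DMSO it was 0.09 ± 0.06. Here ± combines the SDs between single libraries of both groups and is not an SE of the ratio. Within a state both compounds share the DMSO libraries, and the induction comparison shares them too.

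Most listed genes of DNA replication, which takes place in the same cell cycle phase, fell with the p300/CBP compound and on induction. Over all genes tested, 6.46% were called lower with the p300/CBP compound in non-induced cells, 3.04% in induced cells and 7.77% on induction. The shares called higher were 3.43%, 2.94% and 6.01%. The 19 listed genes summed to 3013 ± 283.4 CPM in non-induced p300/CBP libraries and 4341 ± 75.3 CPM in non-induced DMSO libraries (SD, n = 3 each). In non-induced PCAF/GCN5 libraries they summed to 3951 ± 208.2 CPM. Of the 19, 18 fell with the p300/CBP compound in non-induced cells and 0 rose, with a median of -0.59. Among them MCM2, of the replicative helicase, was at -0.79 ± 0.10 (adjusted p = 8.81e-05) and CDC45, which joins that helicase, at -0.73 ± 0.08 (adjusted p = 3.50e-05). In induced cells the sums were 1814 ± 45.9 CPM with the p300/CBP compound, 2126 ± 81.8 CPM with the PCAF/GCN5 compound and 2351 ± 64.8 CPM with DMSO. There 15 fell and 1 rose with the p300/CBP compound (median -0.62). On induction in DMSO 18 fell and 0 rose (median -0.92), among them CDT1, a licensing factor, at -1.35 ± 0.06 (adjusted p = 8.01e-06) and MCM4 at -1.30 ± 0.06 (adjusted p = 8.51e-06). With the PCAF/GCN5 compound 0 passed in either state by edgeR, with 12 and 14 at an unadjusted p below 0.05 in induced and non-induced cells. The 12 of induced cells were all lower, and the direction of the 14 is not given here. Nothing is read from either count. In both states the summed level of every PCAF/GCN5 library was below that of every DMSO library. The part of these cell cycle genes in the histone values was not tested.

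Some genes that make and handle histone mRNA and histones fell with the p300/CBP compound and on induction. Of 12 genes of histone mRNA synthesis and processing, 7 fell and 0 rose with the p300/CBP compound in non-induced cells, 4 and 0 in induced cells, and 8 and 0 on induction in DMSO. In the same order, 6.46%, 3.04% and 7.77% of all genes tested were called lower and 3.43%, 2.94% and 6.01% higher. SLBP was at 109.3 ± 3.30 CPM in non-induced p300/CBP libraries and 136.0 ± 6.97 CPM in non-induced DMSO libraries, a change of -0.34 ± 0.05 (adjusted p = 0.000427). On induction it was at 93.9 ± 6.41 CPM in induced and 136.0 ± 6.97 CPM in non-induced DMSO libraries (-0.56 ± 0.07, adjusted p = 0.00144). CDK2, the kinase that activates histone gene transcription with cyclin E, was at -0.56 ± 0.07 with the p300/CBP compound in non-induced cells (adjusted p = 0.000150).

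Of 16 histone chaperones 11 fell and 1 rose with the p300/CBP compound in non-induced cells, 4 fell and 1 rose in induced cells, and 10 fell and 0 rose on induction. The shares of all genes tested were again 6.46%, 3.04% and 7.77% lower and 3.43%, 2.94% and 6.01% higher. CHAF1B, a subunit of the assembly factor CAF-1, was at 30.4 ± 1.76 CPM in non-induced p300/CBP libraries and 46.2 ± 1.15 CPM in non-induced DMSO libraries (-0.62 ± 0.07, adjusted p = 3.50e-05). The chaperone that rose in either state was ATRX, which deposits histone H3.3 with DAXX, at 0.29 ± 0.05 in non-induced cells (adjusted p = 0.00281). Of 11 tested genes listed as replication-independent histones, 4 fell and 0 rose with the p300/CBP compound in non-induced cells. In induced cells 1 fell and 0 rose, and on induction 5 and 0. Whether each listed gene is independent of replication in these cells was not tested. H2AFX, the gene of the variant that is phosphorylated at DNA breaks, was at -0.55 ± 0.09 in non-induced cells (adjusted p = 0.000976) and at -0.68 ± 0.16 in induced cells (adjusted p = 0.0368). In induced DMSO libraries the chaperones summed to 3091, 3046 and 3442 CPM, and the listed replication-independent histones to 1804, 1794 and 2142 CPM. The third library was the highest in both. Whether calls in these lists change without it is not given here. With the PCAF/GCN5 compound 0 genes of these 3 lists passed in either state by edgeR. At an unadjusted p below 0.05 there were 0 processing genes, 2 chaperones and 3 listed replication-independent histones in induced cells, and 3, 4 and 3 in non-induced cells.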

How the data were processed

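The authors prepared total RNA with a directional kit, per the labels' protocols; StringTie and DESeq2 are named in the submitters' processing notes. Aligner, build, counting program and use of strand are not given in the sources used here. The deposited values used were raw counts per gene, per the file headers. Non-induced DMSO counts were read from the PCAF/GCN5 table, and 1 gene with a broken line was left out. Positions were those of GRCh38 in GENCODE 29 for 85 of 89 members.

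Here CPM, RPKM and fits were computed from the counts: edgeR 4.0.16 in R 4.3.3, TMM, filterByExpr, quasi-likelihood F test, 2-sided, Benjamini-Hochberg over all genes tested, called below 0.05. Each comparison used its own groups. The fit was tested on counts simulated with the same dispersion for all genes and no outlying library. Such a test does not cover the spread of these libraries or members of few counts. Alternatives were other size factors, DESeq2 1.42.0, no filter, all 6 groups in 1 fit, a replicate block and leaving out each library.

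Members and gene lists were chosen with earlier results of these data known. Genes named were the 12 of highest mean CPM, the highest of each class, called members and those beside the 1 CPM line, and up to 4 called genes of other lists. Further members were named after their values were seen. The level of the induced gene is not reported here.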

Additional observations from a re-analysis of the deposited data

How the results depend on the processing

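Counts of members called depended on the processing. On induction in DMSO 2 members were called, 4 with no filter on low counts, 7 with all 6 groups in 1 fit (4 higher, 3 lower) and 1 to 8 without a library. For the p300/CBP compound in induced cells the 2 became 4 with DESeq2, with no filter or with all groups, 1 with a replicate block (HIST1H2AG at an adjusted p of 0.110), and 0 to 5 without a library. In non-induced cells its 6 became 2 to 7 without a library, and HIST1H2AI was at 0.0719 with a replicate block. For the PCAF/GCN5 compound in induced cells the 0 became 1 with all groups. Between the compounds in non-induced cells the 2 became 4 with no filter, 1 with all groups, 1 with a replicate block (HIST1H2BD at 0.0626) and 0 to 2 without a library. For the difference of the p300/CBP response between states the 0 became 1 with no filter and 0 to 1 without a library. The cause was not tested. Calls over all genes moved too. On induction in DMSO 6.01% were higher and 7.77% lower with all libraries, and 15.3% and 17.2% without the third induced DMSO library. For most other settings such shares are not given here, so these counts of members are not set against them. The log2 ratios of summed levels between groups moved by less than their combined library SD under TMM scaling and without HIST1H2BK. Leaving out 1 of 3 libraries cannot move a group mean by as much as the SD of its libraries. Nothing is therefore read from setting the ratios without a library against that SD.

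Replicate numbers did not pair libraries: in 0 of 15 pairs of groups did every same-numbered pair correlate above 0.1 (r from -0.301 to 0.327), and 5 of 18 libraries correlated best with their own number. Of 990 results of named genes under the other settings 924 stayed on their side of the threshold, 50 no longer passed, 16 newly passed and 0 reversed. DESeq2 gave no adjusted p for 10 more. Of 1260 without a library these were 1006, 244, 10 and 0. For the p300/CBP compound in non-induced cells DESeq2 gave 12 members an adjusted p and called 4. With 9.1 M counts, the third non-induced DMSO library limits members below 1 CPM.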

Other observations

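Histone genes often lie head to head. Among the 89 genes there were 18 pairs transcribed away from each other with starts within 1000 bases, and 17 paired an H2A with an H2B gene. In 2 pairs both genes reached 1 CPM, and in 7 only 1 of them did. HIST1H2BC and HIST1H2AC start 218 bases apart. With the p300/CBP compound in non-induced cells HIST1H2AC rose by 0.58 ± 0.09 on the log2 scale, and HIST1H2BC was at 0.33 ± 0.14 (adjusted p = 0.138, edgeR). HIST1H2BJ and HIST1H2AG start 291 bases apart. There HIST1H2AG rose by 0.36 ± 0.08, and HIST1H2BJ was at -0.17 ± 0.12 (adjusted p = 0.445, 95% interval -0.43 to 0.10). In induced cells HIST1H2AG rose by 0.36 ± 0.09, and HIST1H2BJ was at 0.29 ± 0.16 (adjusted p = 0.300). Whether partners differ was not tested.

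HIST1H2BK, at 33.1 CPM, starts 330 bases from HIST1H2AH, at 0.0684 CPM, and HIST2H2BE, at 5.36 CPM, starts 322 bases from HIST2H2AC, at 0.148 CPM. These levels are not scaled to length.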
